A study of Rattus norvegicus with 23 samples.

Results

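Left ventricles of spontaneously hypertensive rats (SHR) of 16 months were compared with left ventricles of SHR of 12 months. SHR rats develop high blood pressure by inheritance, without any treatment. The comparison used 8 of the 23 arrays of the study, chosen by age and strain from the sample titles, with 4 arrays at each age. The array was the Affymetrix rat U34A oligonucleotide array, which reads most genes through 1 or a few probe sets. Of 8799 probe sets, 8740 were not controls, and 7277 of these lay high enough above the dimmest values to be tested. The 4 arrays of SHR of 20 months and the 4 arrays each of Wistar-Kyoto rats (WKY) of 12 and 16 months served for 2 further comparisons, and 3 arrays of WKY of 20 months entered the shared fit. WKY is the related strain used as the normotensive control. No group carried a drug, an added gene or a deletion per the labels, which name neither sex nor diet and list heart failure among their keywords. The labels call the arrays samples and do not say that each came from its own animal, so p-values measure only the spread between these samples, which may be technical.

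The pressure-loaded ventricle first thickens and can later dilate and fail. Fibroblasts then lay down collagens, proteoglycans and adhesive glycoproteins between the muscle cells, and crosslinking enzymes of the lysyl oxidase family stiffen that matrix. The healthy adult cardiomyocyte burns mainly fatty acids, which are broken down by beta-oxidation in mitochondria, and the electrons pass through complexes I to IV of the respiratory chain to drive ATP synthesis. Loss of fatty acid oxidation and return of genes used in the fetal heart are well known features of the overloaded heart.

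Hybridization days, read from the instrument's record of each array, divided the 8 arrays unevenly. Replicates 1 and 2 of 12 months were hybridized on day 1, replicates 3 and 4 of 12 months together with replicates 1 and 2 of 16 months on day 2, and replicates 3 and 4 of 16 months on day 3. Day 2 therefore allowed a comparison of 2 arrays with 2 within a day. Correlations across probe sets were 0.989 to 0.991 among the arrays of 12 months and 0.992 between replicates 3 and 4 of 16 months, while replicates 1 and 2 of 16 months reached only 0.979 to 0.985 with any other array. These 2 arrays stood apart on the first principal component, which held 26.8% of the variance of the 8 arrays. They also stood apart in the brightest 65 probe sets, with a mean level above 11 on the log2 scale, whose median difference from the 12-month mean was 0.29 and 0.28 log2 on replicates 1 and 2 and -0.08 and -0.11 on replicates 3 and 4. The 3' to 5' signal ratio of actin, a sign of RNA quality, was 1.31 ± 0.10 at 12 months and 1.25 ± 0.14 at 16 months (SD, n = 4 each, exact two-sided permutation p = 0.514). That of GAPDH was 1.23 ± 0.09 and 1.29 ± 0.06 (SD, n = 4 each, exact two-sided permutation p = 0.343). That of hexokinase was 2.82 ± 0.42 and 2.94 ± 0.42 (SD, n = 4 each, exact two-sided permutation p = 0.686). The array median was 11.675 ± 0.49 at 12 months and 12.55 ± 0.68 at 16 months (SD, n = 4 each, exact two-sided permutation p = 0.0857). Spiked-in controls had mean log2 signals of 8.81 and 9.14 on replicates 1 and 2 of 16 months. On the other arrays of the comparison they ran from 7.97 to 8.56. The part of these measures in the changes was not tested. Summed markers of ventricular cardiomyocytes ran from 34368 to 38547 intensity units at 12 months and from 31697 to 46633 at 16 months, led by Myl2, the ventricular regulatory myosin light chain.

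Between 12 and 16 months a few transcripts rose, several of matrix proteins among them, and fewer fell, most of them for mitochondrial proteins. In all, 27 probe sets passed an adjusted p of 0.05 (limma with Benjamini-Hochberg adjustment), 20 higher and 7 lower at 16 months, which is 0.371% of those tested (0.275% higher and 0.0962% lower). The annotation gave 1 gene symbol to 23 of them, for 22 of 4170 genes (0.528%), and none to the other 4. Log2 changes, on the scale of log2(intensity + 32), ran from 0.21 to 1.04 among the higher and from -0.66 to -0.40 among the lower probe sets. An unadjusted p below 0.05 was reached by 925 probe sets, 552 higher and 373 lower. The 2 ages did not overlap in 26 of the 27 called probe sets, and in 463 of all tested, which is 6.36% (3.42% higher and 2.94% lower). With each gene represented by its brightest probe set, 13 of 4170 genes were called, 0.312%, with 10 higher (0.24%) and 3 lower (0.0719%). In 9 of the 22 genes the call came from a probe set that was not the brightest, and 27 more probe sets, 14 higher and 13 lower, had an adjusted p between 0.05 and 0.06. The count of 27 rested on a fit to all 23 arrays: with only these 8 arrays limma called 1 probe set, and with the 4 arrays of day 2 alone it called 0, with 645 at an unadjusted p below 0.05. Without replicate 2 of 12 months the count was 4, and without replicate 1 of 16 months it was 69. When replicates 3 and 4 of 16 months were left out it was 136, and when replicates 1 and 2 of 12 months were left out it was 1. Without replicates 1 and 2 of 16 months, the arrays that stood apart, it was 30, of which 10 were among the 27. None of the 7 lower probe sets kept its call in that fit, though each kept its sign. The share of calls that were higher was 74.1% as deposited, 54.3% after quantile normalization, 63% after cyclic loess, 41.7% after median centring and 33.3% after scaling to a common median.

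**Figure D1:**
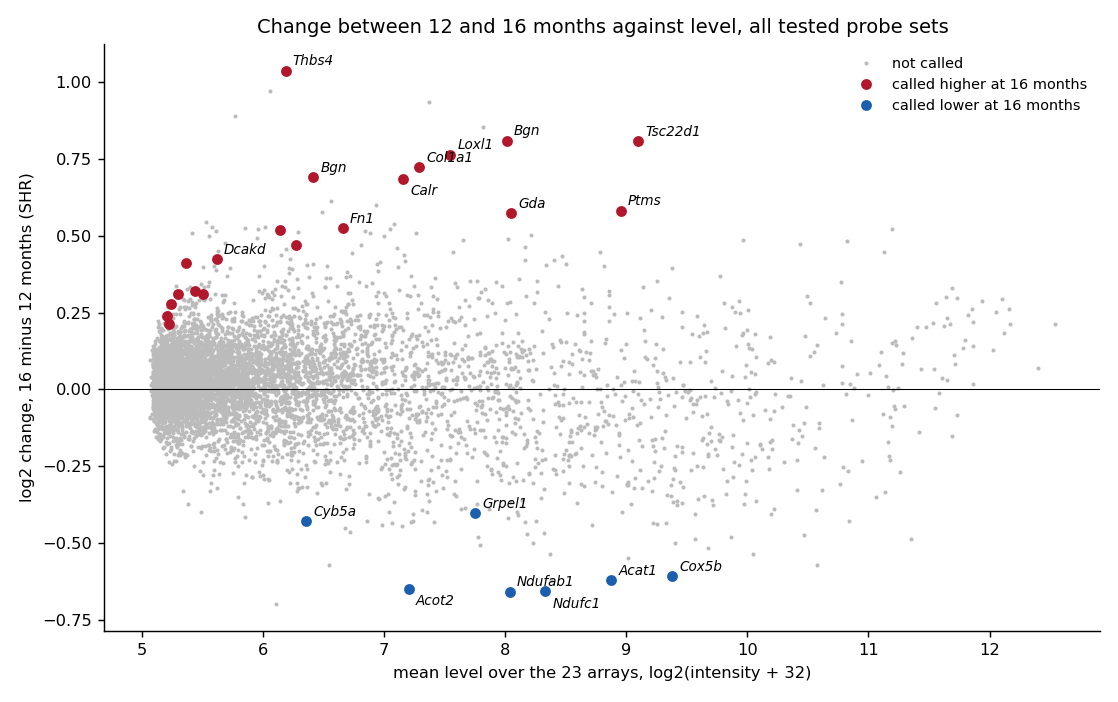
Log2 change between 12 and 16 months in SHR (y axis) against the mean level over the 23 arrays (x axis, log2 of intensity + 32) for the 7277 tested probe sets, with called probe sets coloured and those beyond about 0.4 named. The matrix gene Thbs4 stood highest at 1.04, and the 7 called lower probe sets, most of them of mitochondrial genes, lay between -0.66 and -0.40.

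Among matrix genes the largest called change was that of Thbs4, on chromosome 2, which encodes thrombospondin-4, a secreted glycoprotein of the matrix that binds other matrix proteins and calcium. Its intensity was 54.7, 44.1, 20.6 and 38.5 on the arrays of 12 months and 59.3, 142.6, 162.3 and 107.9 on those of 16 months. Replicate 1 of 16 months was only just above the highest array of 12 months, and the other 3 were well above. Thbs4 rose by 1.04 ± 0.16 log2 (SE, limma adjusted p = 0.00459). It passed in every alternative fit other than those with only the 8 arrays or only day 2.

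Bgn, on chromosome X, encodes biglycan, a small proteoglycan that binds collagen and TGF-beta, and it was the one gene with several probe sets that were all called. The brighter set read 266.4, 174, 209 and 206.1 at 12 months and 313.9, 405.7, 465 and 409.6 at 16 months. It rose by 0.81 ± 0.15 log2 (limma adjusted p = 0.0112), and the dimmer set rose by 0.69 ± 0.13 (adjusted p = 0.0166). The ages did not overlap on either, but the call of both was lost without replicate 2 of 12 months, and that of the dimmer also without replicate 3 of 16 months. With the hybridization day as a fixed block neither set passed.

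Loxl1, on chromosome 8, encodes a lysyl oxidase-like enzyme that crosslinks elastin and collagen. It read 176.9, 125.9, 134.7 and 135 at 12 months and 191.4, 246, 326 and 311.1 at 16 months. The change was a rise of 0.76 ± 0.15 log2 (limma adjusted p = 0.0172). Replicate 1 of 16 months was again the lowest of its age. A second, dimmer Loxl1 probe set had a change of 0.39 ± 0.11 and did not pass (adjusted p = 0.105). Leaving out replicate 2, 3 or 4 of 12 months, or replicate 3 or 4 of 16 months, ended the Loxl1 call, as did scaling to a common median and the day as a fixed block.

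Fn1, on chromosome 9, encodes fibronectin, the adhesive glycoprotein on which collagen fibrils assemble. Its brightest probe set read 55.7, 47.2, 44.1 and 54.5 at 12 months and 65.5, 93.8, 103.1 and 85.8 at 16 months. It rose by 0.52 ± 0.10 log2 (limma adjusted p = 0.0174), while 2 dim Fn1 probe sets, below 30 on all 8 arrays, had changes of 0.05 and 0.00 and did not pass. The Fn1 call was lost without replicate 2 or 3 of 12 months and without replicate 2 or 3 of 16 months, after scaling to a common median and with the day as a fixed block.

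Ltbp2, on chromosome 6, encodes a latent TGF-beta binding protein of elastic microfibrils. It lay near the floor of the array, at 2.1, 1, 1.2 and 1.8 at 12 months and at 1.8, 8.2, 14.6 and 10.9 at 16 months. It was the one called probe set whose ages overlapped, because replicate 1 of 16 months stayed at the 12-month level. The rise of 0.28 ± 0.06 log2 (limma adjusted p = 0.0453) passed in 5 of 25 alternatives, and the call was lost when any array other than replicate 1 of 16 months was left out. A second dim Ltbp2 set had a change of -0.01 and did not pass.

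**Figure D2:**
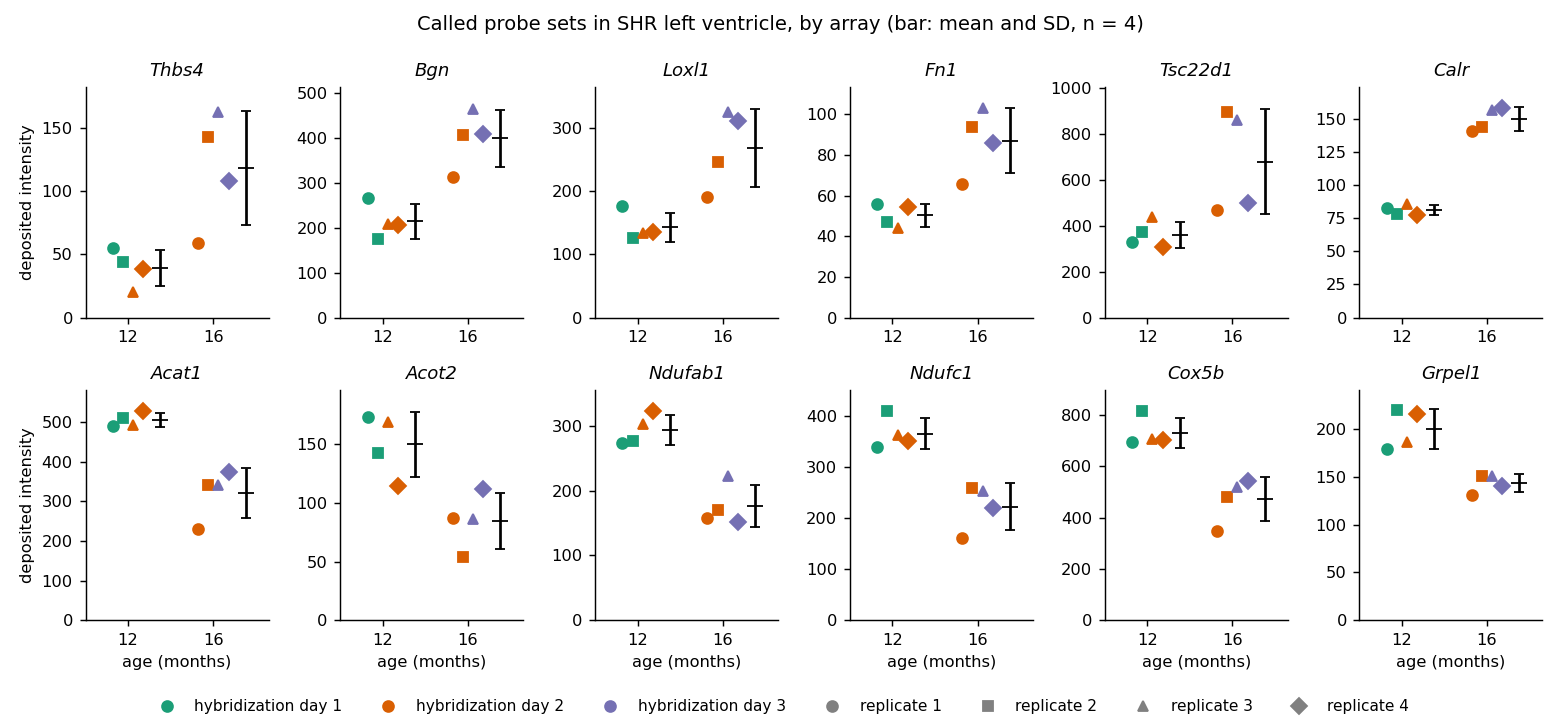
Deposited intensity (y axis, linear from 0) of 12 called probe sets on each SHR array of 12 and 16 months (x axis); the marker gives the replicate, the colour the hybridization day, and the black bar the mean and SD of 4 arrays. Replicate 1 of 16 months was the lowest 16-month array for Thbs4, Bgn, Loxl1, Fn1 and Tsc22d1, while Calr ran from 140.7 to 158.2 on all 4 arrays of 16 months.

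Col1a1, on chromosome 10, encodes the main chain of type I collagen, the most abundant fibrillar collagen of the heart, and its 4 probe sets did not give the same call. The called set read 111, 91.4, 109 and 106.6 at 12 months and 157.2, 238.8, 192.6 and 190.3 at 16 months, a rise of 0.72 ± 0.12 log2 (limma adjusted p = 0.00907). The brightest set overlapped between the ages, with replicate 1 of 16 months at 184.2 inside the 12-month range of 172.3 to 255.5, and its change of 0.34 ± 0.22 did not pass (adjusted p = 0.56). The other 2 sets did not overlap between the ages and had changes of 0.29 ± 0.11 and 0.60 ± 0.15 (adjusted p = 0.234 and 0.0596). The call of the one set was lost without replicate 2 of 12 months and with the day as a fixed block.

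Over the whole list of 76 measured matrix genes, 5 were called higher (Thbs4, Bgn, Loxl1, Fn1 and Ltbp2) and 0 lower, beside 0.24% and 0.0719% of all genes. The median change of the list was 0.10 log2, beside 0.03 over all 4170 genes, and 64 of 76 were above 0, beside 60.2% of all genes. At an unadjusted p below 0.05, 17 were higher and 2 lower, where all genes gave 7.67% higher and 5.06% lower. The ages did not overlap in 7 matrix genes that were higher and 1 that was lower, beside 3.36% and 3.14% of all genes. The count of 5 depended on the arrays and on the scaling. It was 11 without replicate 1 of 16 months, 1 without replicate 2 of 12 months, 2 without replicate 3 of either age, and 3 without replicate 4 of either age or replicate 2 of 16 months. It was 2 after scaling to a common median, 1 with the day as a fixed block and 0 with only the 8 arrays or only day 2. Without replicates 1 and 2 of 16 months it was 8, and it was 1 without replicates 3 and 4 of 16 months or replicates 1 and 2 of 12 months.

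By role, the 5 fibrillar collagens had a median of 0.34 log2 and the 9 genes of collagen processing and crosslinking a median of 0.13, all 14 above 0. Col3a1, the type III collagen chain, read 140.8 to 223 at 12 months and 158.8, 295.8, 313.8 and 240.9 at 16 months. Its change of 0.48 ± 0.17 log2 did not pass (limma adjusted p = 0.225), nor did that of Col1a2, the second chain of type I collagen, at 0.52 ± 0.15 (adjusted p = 0.129). Both genes overlapped between the ages through replicate 1 of 16 months. The calcification inhibitor gene Mgp had a change of 0.49 ± 0.15, the periostin gene Postn of 0.35 ± 0.11 and the metalloproteinase inhibitor gene Timp1 of 0.44 ± 0.11, none of which passed (adjusted p = 0.13, 0.173 and 0.0642). Without replicate 1 of 16 months, Col1a2 (0.71), Mgp (0.64), Postn (0.47), Timp1 (0.55) and the type V collagen gene Col5a1 (0.43) passed. Spp1, the gene of the secreted glycoprotein osteopontin, had a change of 0.09 ± 0.09 (adjusted p = 0.724), and the 11 basement membrane and other collagen genes had a median of 0.05.

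Replicate 1 of 16 months stood apart from its group in the medians of fibrillar collagens and fibroblast markers but not in that of complex I genes. Relative to the 12-month mean, the 5 fibrillar collagens had a median of -0.14 log2 on replicate 1 of 16 months and of 0.43, 0.73 and 0.39 on replicates 2 to 4. The 11 fibroblast marker genes, 3 of which are fibrillar collagens, gave -0.14 on replicate 1 and 0.25, 0.22 and 0.24 on the others. The 2 lists had the same median on replicate 1, so they are not separate readings of that array. Ventricular cardiomyocyte markers gave 0.30 on replicate 1 and 0.07, -0.20 and -0.04 on replicates 2 to 4. The brightest 65 probe sets as a whole gave 0.29, 0.28, -0.08 and -0.11 on replicates 1 to 4. The part of brightness in the values of these markers was not tested. The 24 complex I genes had medians of -0.34, -0.28, -0.30 and -0.38 on replicates 1 to 4. Summed fibroblast markers ran from 2552 to 2987 intensity units at 12 months and from 3004 to 3876 at 16 months. By this sum, unlike the median, replicate 1 of 16 months also lay above all arrays of 12 months. Dcn, the decorin gene, gave most of the sum, with a mean of 2066.5, and Ddr2 and Tcf21 lay below 10. The part of these cell markers in the matrix result was not tested, and in whole ventricle fewer cells of a type and less RNA per cell cannot be told apart.

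**Figure D3:**
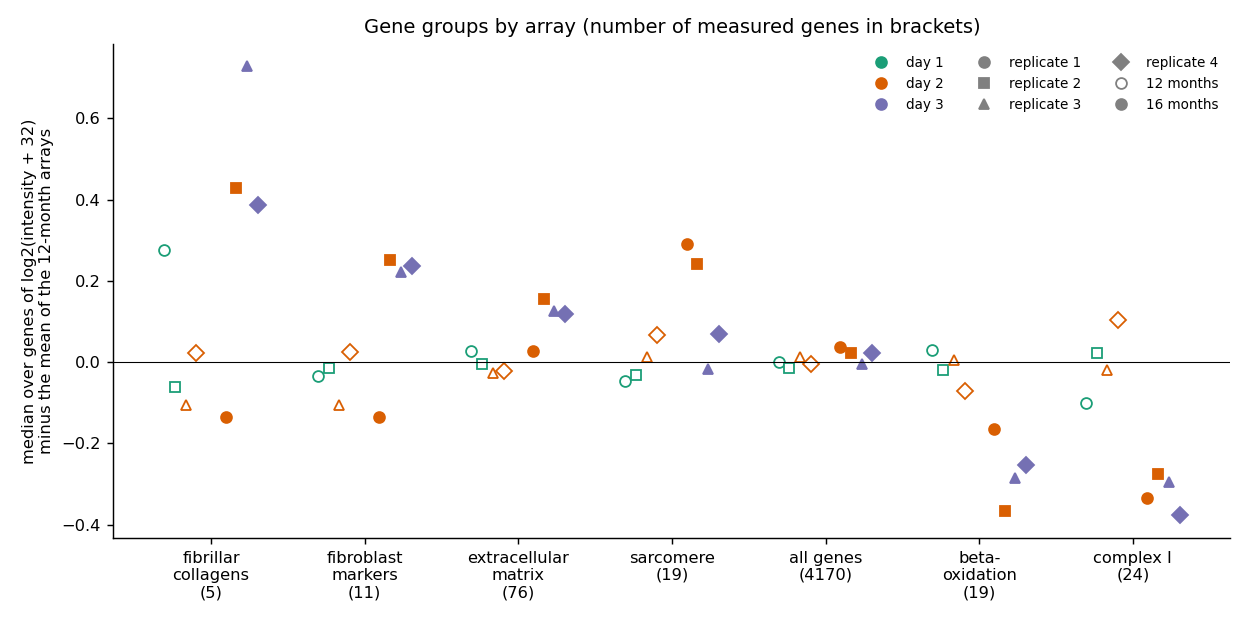
Median over the genes of a group (y axis, log2 of intensity + 32 minus the mean of the 12-month arrays) on each SHR array of 12 months (open) and 16 months (filled), coloured by hybridization day. Replicate 1 of 16 months lay at -0.14 for fibrillar collagens and fibroblast markers, while all 4 arrays of 16 months lay between -0.38 and -0.28 for complex I.

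Of 55 measured genes of TGF-beta and growth factor signalling, 1 was called higher and 0 lower, beside 0.24% and 0.0719% of all genes, with a list median of 0.05 log2. The called gene was Tsc22d1, on chromosome 15, which encodes a leucine zipper protein induced by TGF-beta. It read 331.2, 372.5, 436.9 and 306.9 at 12 months and 467.1, 895.9, 859.8 and 498.8 at 16 months. Replicates 2 and 3 of 16 months were far above the rest, replicates 1 and 4 just above the 12-month range, and the rise was 0.81 ± 0.17 (limma adjusted p = 0.0215). The call was lost without replicate 1, 2 or 4 of 12 months, without replicate 2 or 3 of 16 months, after scaling to a common median and with the day as a fixed block.

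The 22 ligand genes had a median of 0.02 and the 19 receptor genes a median of 0.08, with none called. Tgfb3, a TGF-beta ligand, had a change of 0.39 ± 0.11 on its brightest probe set and of 0.44 ± 0.11 on the other, without overlap between the ages on either (adjusted p = 0.098 and 0.067). Gdf15, a stress-induced ligand of the same superfamily, read 2.5 to 8.3 at 12 months and 10 to 14.7 at 16 months, a change of 0.27 ± 0.07 that did not pass (adjusted p = 0.0706). The insulin-like growth factor binding protein gene Igfbp6 had 0.36 ± 0.09 (adjusted p = 0.0667).

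Acat1, on chromosome 8, had the smallest adjusted p of the fatty acid list. It encodes the mitochondrial acetoacetyl-CoA thiolase, which acts in ketone body use and isoleucine breakdown. Its brightest probe set read 489.9, 510.6, 493 and 528.4 at 12 months and 230.9, 340.8, 342.2 and 374.2 at 16 months. All 4 arrays of 16 months were far below the narrow 12-month range, with replicate 1 the lowest, and Acat1 fell by 0.62 ± 0.11 log2 (limma adjusted p = 0.0106). Its 2 other probe sets had changes of -0.30 ± 0.10 and -0.11 ± 0.07 and did not pass (adjusted p = 0.199 and 0.59). The call was lost without replicate 2 of 12 months, and when replicates 1 and 2 of 16 months were both left out.

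Acot2, on chromosome 6, encodes a mitochondrial thioesterase that frees fatty acids from coenzyme A. It read 173.5, 142.4, 169.1 and 114.1 at 12 months and 87, 54.1, 86.3 and 112.2 at 16 months. The highest array of 16 months lay just under the lowest of 12 months, and Acot2 fell by 0.65 ± 0.15 (limma adjusted p = 0.0432). The call was lost without replicate 1, 2 or 3 of 12 months and without replicate 2 or 3 of 16 months. It was also lost with the day as a fixed block, and a dim second probe set did not pass (-0.10 ± 0.08).

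In the list of 51 measured genes of fatty acid uptake and oxidation, these 2 fell and 0 rose, beside 0.0719% and 0.24% of all genes. The list median was -0.09 log2, 10 genes were above 0, and 18 were lower and 1 higher at an unadjusted p below 0.05, beside 5.06% and 7.67% of all genes. The count of 2 became 5 without replicate 1 of 16 months, 0 without replicate 2 of 12 months, and 1 without replicate 1 or 3 of 12 months or replicate 2 or 3 of 16 months. It was 6 after scaling to a common median, and 4 after median centring, under the stricter filter, without the trend and without replicates 3 and 4 of 16 months. It was 1 with no filter and without replicates 1 and 2 of 16 months, and 0 with only the 8 arrays, only day 2 or without replicates 1 and 2 of 12 months.

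In beta-oxidation 19 of 19 measured genes were below 0, with a median of -0.30. Of these, 13 reached an unadjusted p below 0.05, beside 5.06% of all genes that were lower, and 7 had no overlap between the ages, beside 3.14%, but 0 passed. Ech1, whose product isomerises unsaturated fatty acid intermediates, read 639.7 to 679.9 at 12 months and 602.1, 413.4, 351.5 and 501.9 at 16 months, a change of -0.50 ± 0.12 just short of the threshold (limma adjusted p = 0.0504). Acadl, the long-chain acyl-CoA dehydrogenase gene, read 1090 to 1207 at 12 months and 792 to 958 at 16 months, with a change of -0.37 ± 0.09 (adjusted p = 0.0554). Decr1, the dienoyl-CoA reductase gene, had -0.47 ± 0.12 (adjusted p = 0.0699). The 15 genes of uptake, binding and activation had a median of -0.08, and the fatty acid transporter gene Cd36 had -0.24 ± 0.13 (adjusted p = 0.483).

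No gene of the 69 measured for oxidative phosphorylation and the citrate cycle passed by its brightest probe set, but 3 of them fell by another probe set. Ndufab1, on chromosome 1, encodes the mitochondrial acyl carrier protein, which is also a complex I subunit. The called set read 272.6, 276.6, 301.8 and 323 at 12 months and 157.5, 170.7, 223 and 151.7 at 16 months, and it fell by 0.66 ± 0.11 log2 (limma adjusted p = 0.00907). The ages were well separated. The brightest Ndufab1 set overlapped between the ages and had a change of -0.40 ± 0.16 (adjusted p = 0.272), and the remaining set lay under 5 on all 8 arrays.

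Ndufc1, on chromosome 2, is another complex I subunit gene. It read 338.1, 408.9, 362.4 and 351.2 at 12 months and 160.2, 258.8, 252.5 and 219.1 at 16 months on the called set, which fell by 0.66 ± 0.14 (limma adjusted p = 0.0244). The brighter set had a change of -0.41 ± 0.11, without overlap and short of the threshold (adjusted p = 0.11). The Ndufc1 call was lost without replicate 2, 3 or 4 of 12 months and without replicate 1 of 16 months. It was also lost with the day as a fixed block.

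Cox5b, on chromosome 9, encodes a nuclear-coded subunit of complex IV. Its called set read 692.3, 814.9, 703.7 and 701.2 at 12 months and 347.2, 480.7, 520.8 and 540.5 at 16 months. It fell by 0.61 ± 0.11 (limma adjusted p = 0.0115), a call lost without replicate 2 of 12 months, the highest array. The brightest Cox5b set had a change of -0.26 ± 0.12 (adjusted p = 0.35).

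The median of the 69 genes was -0.19 log2 and 6 were above 0. At an unadjusted p below 0.05, 25 were lower and 0 higher, beside 5.06% and 7.67% of all genes. Among the 24 complex I genes, all were below 0, 18 were lower at an unadjusted p below 0.05, 13 had no overlap (3.14% of all genes were lower without overlap), and the median was -0.31. The 12 genes of complex IV had a median of -0.11, the 15 of ATP synthase and carriers -0.18, the 5 of complexes II and III -0.19, and the 13 of the citrate cycle and pyruvate dehydrogenase -0.05. Ndufs7, an iron-sulphur subunit of complex I, read 739.7 to 781.2 at 12 months and 585, 574.4, 523.6 and 445.1 at 16 months, a change of -0.49 ± 0.12 (limma adjusted p = 0.0514). The muscle isoform gene of a complex IV subunit, Cox8b, had -0.57 ± 0.13 (adjusted p = 0.0504).

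Of 11 measured genes of mitochondrial import, chaperones and proteases, 1 fell and 0 rose, beside 0.0719% and 0.24% of all genes, with a median of -0.17. Grpel1, the nucleotide exchange factor of mitochondrial Hsp70, read 178.5, 219.2, 185.7 and 215.7 at 12 months and 130.6, 150.2, 150.3 and 140.6 at 16 months. It fell by 0.40 ± 0.09 log2 (limma adjusted p = 0.0451). The ages did not overlap, yet the call was lost when any array other than replicate 1 of 12 months was left out. It was also lost with the day as a fixed block. Outside the mitochondrial lists, Cyb5a on chromosome 18, which encodes the electron carrier cytochrome b5, read 51.1 to 70.3 at 12 months and 25 to 41.4 at 16 months on one probe set. That set fell by 0.43 ± 0.09 (adjusted p = 0.0341), a call lost without replicate 2, 3 or 4 of 12 months and without replicate 1 or 2 of 16 months. The brightest Cyb5a set had -0.46 ± 0.20 without overlap (adjusted p = 0.325).

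Of 15 genes of amino acid breakdown, 1 was called higher and 0 lower, beside 0.24% and 0.0719% of all genes. The list median was -0.18 log2, with 11 genes below 0. At an unadjusted p below 0.05 by limma, 6 were lower and 2 higher, beside 5.06% and 7.67% of all genes. Bcat1, on chromosome 4, the cytosolic branched-chain aminotransferase gene, read 2.5, 3.3, 2.7 and 1.3 at 12 months and 9.5, 8.8, 8.4 and 7.8 at 16 months, all near the floor. It rose by 0.24 ± 0.05 log2 (limma adjusted p = 0.0389), a call that was kept in 6 of 24 alternatives and lost with any array other than replicate 4 of 16 months left out. Its mitochondrial counterpart Bcat2 read 108.5 to 134.9 and then 77 to 95, a change of -0.39 ± 0.09 just short of the threshold (adjusted p = 0.0504). The glutamine synthetase gene Glul had 0.41 ± 0.10 on its brightest set (adjusted p = 0.0554). None of 22 genes of glucose uptake and glycolysis was called and their median was -0.01. The hexokinase gene Hk1, which commits glucose to metabolism, had 0.50 ± 0.12 without overlap, at 173.3 to 238.6 and 266.4 to 327.2 (adjusted p = 0.0588).

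Calr, in the lists of calcium handling and of the unfolded protein response, was called by a probe set that was not its brightest. It lies on chromosome 19 and encodes calreticulin, a calcium-binding chaperone of the endoplasmic reticulum that is abundant in the fetal heart. Its called probe set was among the tightest, at 82.5, 78.5, 85.5 and 77.6 at 12 months and 140.7, 143.7, 156.4 and 158.2 at 16 months, and it rose by 0.68 ± 0.12 log2 (limma adjusted p = 0.0106). It was the 1 probe set called with only these 8 arrays, but its call was lost without replicate 2 of 12 months and with the day as a fixed block. The brightest Calr set went from a mean of 483 to 615 without overlap and had a change of 0.33 ± 0.09 (adjusted p = 0.0946).

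Ptms, on chromosome 4, the gene of the small acidic nuclear protein parathymosin, read 422.3, 369.3, 380.5 and 392.1 at 12 months and 646.8, 711.5, 551.6 and 510.9 at 16 months. It rose by 0.58 ± 0.11 (limma adjusted p = 0.0106), a call lost without replicate 2 of 12 months, and 2 dimmer sets did not pass. Gda, on chromosome 1, the guanine deaminase gene of purine breakdown, read 176.5 to 227.2 and then 265 to 361.4 and rose by 0.57 ± 0.11 (adjusted p = 0.0174). The Gda call was lost without replicate 2 or 3 of either age, after scaling to a common median and with the day as a fixed block, and 2 other sets did not pass.

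The remaining called genes were dim. The called sets of Pld2 (phospholipase D2), Dcakd (a putative coenzyme A kinase), Ccnd3 (cyclin D3) and Ntf4 (neurotrophin-4) had means of 2.25 to 12.4 at 12 months and 7.67 to 23.7 at 16 months. Their rises were 0.31, 0.42, 0.32 and 0.21 log2 (limma adjusted p = 0.00876, 0.0106, 0.0349 and 0.0377), with no overlap between the ages. Brighter sets of Pld2, Dcakd and Ccnd3 had changes of 0.07, -0.01 and 0.23 and did not pass. With the day as a fixed block the calls of Dcakd, Ccnd3 and Ntf4 were lost. The call of Dcakd was lost without replicate 2 of 12 months, and those of Ccnd3 and Ntf4 without any of several arrays, that one among them, and under each of the 4 other scalings. Bcat1 and Ltbp2 were also lost under each of the 4. In all, 8 of the 27 called probe sets had both group means below the added 32, where the log2 scale compresses a change. The 4 called probe sets without a symbol were higher, by 0.31 to 0.52.

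The promoters of 2 genes that rose and 2 that fell are shown from RefSeq (GRCr8), each as the 300 bases around the annotated start with most of them upstream, because these 4 genes stand for the matrix and mitochondrial changes. Capitals mark matches to 3 common promoter motifs, each searched on both strands, and no marked match overlaps another. The GC box, bound by Sp1 family factors, was searched as GGGCGG and, for the other strand, as its reverse complement. The CCAAT box, bound by NF-Y, was searched in the same way by the letters of its name. The TATA box, bound by the TATA-binding protein, was searched in the same way by the letters TATAAA.
Thbs4 (minus strand, chr2:25760296-25760595): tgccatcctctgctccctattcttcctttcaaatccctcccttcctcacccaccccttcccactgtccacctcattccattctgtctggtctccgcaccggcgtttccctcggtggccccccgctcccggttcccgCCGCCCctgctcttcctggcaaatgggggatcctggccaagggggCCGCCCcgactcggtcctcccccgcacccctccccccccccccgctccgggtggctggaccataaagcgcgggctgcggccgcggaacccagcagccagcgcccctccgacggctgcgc
Loxl1 (minus strand, chr8:67612175-67612474): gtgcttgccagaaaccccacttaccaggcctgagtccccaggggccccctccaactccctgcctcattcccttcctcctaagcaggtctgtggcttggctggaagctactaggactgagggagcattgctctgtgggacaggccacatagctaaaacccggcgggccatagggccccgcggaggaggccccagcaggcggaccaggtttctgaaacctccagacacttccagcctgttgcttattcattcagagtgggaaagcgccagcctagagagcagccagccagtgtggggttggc
Acat1 (minus strand, chr8:62904993-62905292): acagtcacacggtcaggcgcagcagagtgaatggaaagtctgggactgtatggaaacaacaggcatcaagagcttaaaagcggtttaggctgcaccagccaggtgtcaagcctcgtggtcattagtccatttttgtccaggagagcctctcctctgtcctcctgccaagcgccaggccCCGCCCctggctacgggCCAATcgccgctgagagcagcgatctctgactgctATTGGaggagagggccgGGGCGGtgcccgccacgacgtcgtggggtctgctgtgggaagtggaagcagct
Ndufc1 (minus strand, chr2:137601686-137601985): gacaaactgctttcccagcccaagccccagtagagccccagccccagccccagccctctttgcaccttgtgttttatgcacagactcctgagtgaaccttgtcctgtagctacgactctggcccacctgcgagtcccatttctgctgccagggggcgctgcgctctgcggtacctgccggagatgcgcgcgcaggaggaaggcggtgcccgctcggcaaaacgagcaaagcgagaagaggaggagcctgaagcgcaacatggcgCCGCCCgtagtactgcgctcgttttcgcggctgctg

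The Thbs4 window held 2 GC boxes, that of Acat1 2 GC boxes and 2 CCAAT boxes, and that of Ndufc1 1 GC box, while the Loxl1 window held none of the 3 motifs. Among genes with a called probe set, 12 of the 15 that were higher and 7 of the 7 that were lower had a promoter in the table. The GC box was in 10 of those 12 and in 4 of those 7, beside 58.2% of the promoters of the 3425 tested genes in the table and 33.1% of all 33469. The CCAAT box was in 5 and 4, beside 38.3% and 37.5%. The TATA box was in 1 and 0, beside 10.3% and 14.2%. These are matches of letters in a window and no test was made of them.

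The sarcomere, calcium handling and wall stress lists gave no call by the brightest probe set. Of all genes 0.312% were called in that way, so 0 calls in lists of this size is no result about them. The same holds for the other lists with 0 calls. Of 19 sarcomere genes 0 passed and the median was 0.14 log2, with 0.29 and 0.24 on replicates 1 and 2 of 16 months and -0.02 and 0.07 on replicates 3 and 4. Myh6, the alpha myosin heavy chain gene, had a change of 0.07 ± 0.13 and Myh7, the beta chain gene, of 0.13 ± 0.14 (limma adjusted p = 0.889 and 0.757), and the sign of both turned without replicate 1 of 16 months. These are among the brightest genes of the array, where replicates 1 and 2 of 16 months read higher. The median of the brightest 65 probe sets was 0.11 as deposited and 0.00 after quantile normalization, which turned Myh7 to -0.07.

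Of 29 calcium handling genes 0 passed by the brightest probe set, with a median of 0.05. Atp2a2, the calcium pump of the sarcoplasmic reticulum, had 0.16 ± 0.14, and its inhibitor phospholamban (Pln) had -0.16 ± 0.10 (limma adjusted p = 0.699 and 0.513). Of 15 genes of wall stress and the fetal programme 0 passed, with a median of 0.15. Nppa, the atrial natriuretic peptide gene, read 2711, 2537, 2219 and 2481 at 12 months and 2799, 5243, 3801 and 2932 at 16 months. The ages did not overlap, but the arrays of 16 months spread widely, and the change of 0.52 ± 0.18 did not pass (adjusted p = 0.191). The 6 measured atrial markers, Nppa among them, gave 0 calls and a median of 0.02, with 3 above 0 and 3 below. The brain natriuretic peptide gene Nppb had 0.25 ± 0.14 and overlapped (adjusted p = 0.488). Skeletal alpha-actin, Acta1, had 0.30 ± 0.11 without overlap (adjusted p = 0.223).

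Markers of other cell types were also read. Of 10 macrophage markers 0 were called, 9 were above 0 and the median was 0.18, and their summed intensity ran from 469 to 646 at 12 months and from 615 to 1007 at 16 months. The complement genes C1qb and C1qc had 0.37 ± 0.14 and 0.36 ± 0.12 (limma adjusted p = 0.233 and 0.193). The inflammation list, with complement and antigen presentation, had 47 measured genes, 0 calls and a median of 0.04. Tnf lay near the floor, at 2 to 2.7 at 12 months and 3.7 to 13.9 at 16 months, a change of 0.20 ± 0.05 (adjusted p = 0.0588). Lymphocyte markers summed to 133 to 160 and 133 to 201, with 7 of 14 below 10, and endothelial markers to 191 to 268 and 183 to 229. Nerve and Schwann cell markers summed to 305 to 349 and 401 to 412, without overlap, led by Ngfr, while 9 of 14, Sox10 and Mbp among them, stayed below 10. A lack of overlap was not particular to that sum. Smooth muscle markers summed to 1461.5 to 1710.4 and 1781.1 to 2032.6, and atrial markers to 2389 to 2833 and 2960 to 5387. Adipocyte markers were lower, at 599.4 to 639.2 and 524.5 to 599.2. The fibroblast sums given above did not overlap either. The neural adhesion gene Ncam1 had 0.52 ± 0.12, just short of the threshold (adjusted p = 0.0504).

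Hemoglobin gives a measure of retained blood. Of 5 measured red cell markers 0 were called, 3 were above 0 and 2 below, and the median was 0.12. The beta-globin genes Hbb and Hbb-b1 had changes of -0.53 ± 0.16 and -0.55 ± 0.14 (limma adjusted p = 0.134 and 0.0693), while the dim alpha-globin gene Hba-a3, at 3.4 to 8.7 and then 9.6 to 16.5, had 0.24 ± 0.10 (adjusted p = 0.274). Summed red cell markers, to which Hbb gave most, ran from 1560 to 2166 at 12 months and from 1072 to 1890 at 16 months. Of 35 genes of oxidative stress defence 0 were called, with a median of -0.06. Gstp1 and Mgst1, glutathione transferase genes, had -0.43 ± 0.10 and -0.45 ± 0.11 without overlap, just short of the threshold (adjusted p = 0.0504 and 0.0514). None of 24 immediate early genes was called, and none of 22 heat shock and unfolded protein response genes by its brightest probe set. The lists of the renin-angiotensin system (17 genes), adrenergic signalling (26), ion channels (19), cell death (18) and cytoskeleton and adhesion (33) gave 0 calls, with medians of -0.00, 0.01, 0.01, 0.02 and 0.12. Adipocyte, mast cell and smooth muscle markers gave 0 calls, with medians of -0.05, 0.03 and 0.09.

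Within day 2, where arrays of both ages were hybridized together, all 27 called probe sets differed in the direction of the whole contrast. The 20 higher ones differed by 0.14 to 1.05 log2 and the 7 lower ones by -0.81 to -0.43. Between replicates 3 and 4 of 16 months and replicates 1 and 2 of 12 months, on days 3 and 1, the corresponding ranges were 0.17 to 1.02 and -0.60 to -0.26. Both sets of arrays belong to the contrast that chose the probe sets and are no independent check. For Thbs4 the day 2 difference was 1.05 and that of the other days 1.02, and for Acat1 they were -0.79 and -0.45. For Loxl1 they were 0.58 and 0.95. The medians of the whole lists in the 2 sets of arrays were 0.10 and 0.10 for the 76 matrix genes and -0.33 and -0.30 for complex I, while fibrillar collagens had 0.20 and 0.48. Complex IV had -0.03 in day 2 and -0.26 on the other days, and ATP synthase and carriers had -0.09 and -0.18. With the day as a fixed block the estimated change is the day 2 difference, and the other arrays only add to the estimate of the spread. That fit called 42 probe sets by limma, 31 higher and 11 lower. Of these, 7 were among the 27 (Thbs4, Pld2, Ndufab1, Acat1, Ptms, Cox5b and Cyb5a). With the day as a random block 25 were called (consensus correlation 0.0633).

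The same ages were compared in WKY to ask whether the change in SHR differed from ageing in the control strain. No probe set passed for the difference of the 2 changes (limma, 0.00% called, 516 at an unadjusted p below 0.05, smallest adjusted p 0.0559), so none of the changes is shown to be particular to SHR. In WKY 1 probe set passed between 12 and 16 months, 0.0137%, and none of the 27 did. Among the 27, the changes in WKY ran from -0.36 to 0.14, with 8 of the 20 higher ones above 0 and 7 of the 7 lower ones below 0. Of these lower ones Grpel1 had -0.31 in WKY. The rest ran from -0.18 for Ndufc1 to -0.03 for Acot2, beside a median of 0.02 over all genes. Thbs4 went from 3.9 to 5.25 in WKY, far below SHR of either age, and its difference of changes was 0.98 log2 (adjusted p = 0.166). Tsc22d1 went from a mean of 551 to 422 in WKY and had a difference of 1.17, and the called Calr set went from 120 to 100 and had 0.87 (adjusted p = 0.0976 for each). Grpel1 was lower at 16 months in WKY too, at 252 and 197, with a difference of changes of -0.09 (adjusted p = 0.916). The matrix list had a median of 0.01 in WKY and complex I one of -0.11. All arrays of the strains were hybridized on different days, with different recorded solution types and, where recorded, different chip lots. A strain difference in level and the run therefore cannot be told apart. In WKY both ages shared 1 hybridization day, on different fluidics stations.

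**Figure D4:**
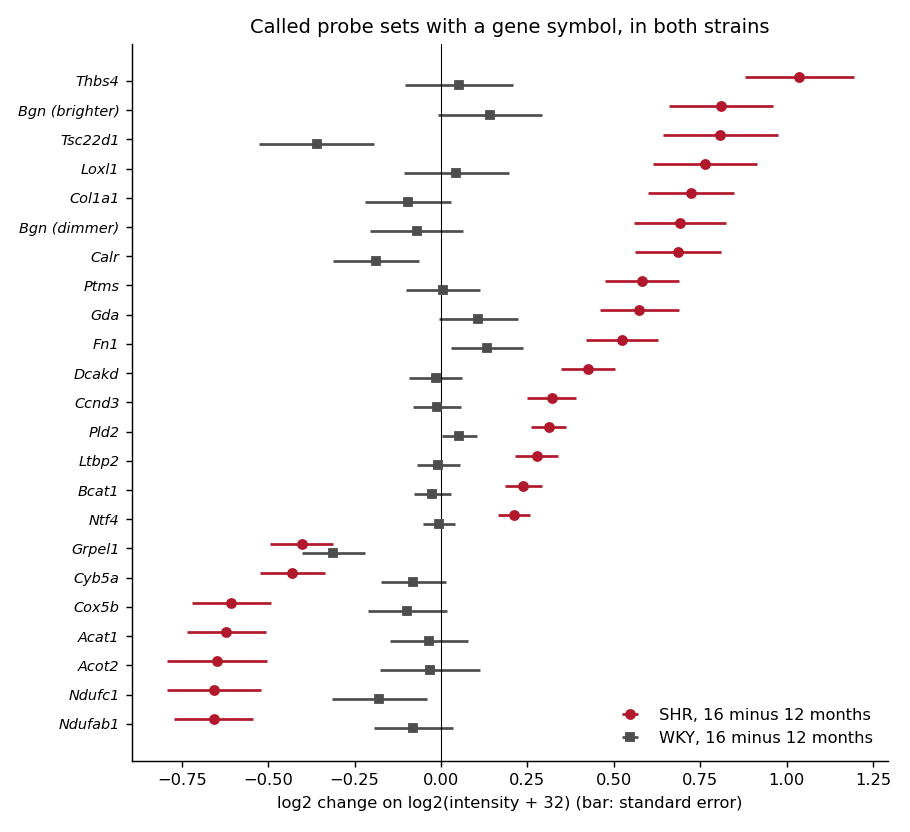
Log2 change between 12 and 16 months (x axis, bars are standard errors) of the 23 called probe sets with a gene symbol, in SHR (circles) and WKY (squares). The probe sets were called in SHR, so only the WKY values are free of that choice; they ran from -0.36 for Tsc22d1 to 0.14 for the brighter Bgn probe set.

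The step from 12 to 16 months was also set against that from 16 to 20 months in SHR. The 2 steps share the arrays of 16 months, and no probe set passed for their difference (limma, 0.00% called, 601 at an unadjusted p below 0.05, smallest adjusted p 0.107). In the later step 6 probe sets passed, 0.0825%. Thbs4 had means of 39.5, 118 and 214 at 12, 16 and 20 months, with steps of 1.04 and 0.77 log2, the second short of the threshold (adjusted p = 0.0529). Fn1 had means of 50.4, 87 and 134 and steps of 0.52 and 0.49, while Ltbp2 had steps of 0.28 and 0.44, both called. Acat1, at 505, 322 and 310, had steps of -0.62 and -0.04, and Ndufc1, at 365, 223 and 210 on the called set, had -0.66 and -0.07. Calr and Ptms had their highest means at 16 months, with later steps of -0.27 and -0.22 that did not pass. All these genes were called on the same 16-month arrays from which the later step starts. That choice favours a later step that is small or of opposite sign. The matrix list had medians of 0.10 and 0.09 in the 2 steps, the fibrillar collagens 0.34 and 0.62, and complex I -0.31 and -0.13. SHR of 20 months shared no hybridization day with a younger group, so in the later step age and day cannot be told apart.

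**Figure D5:**
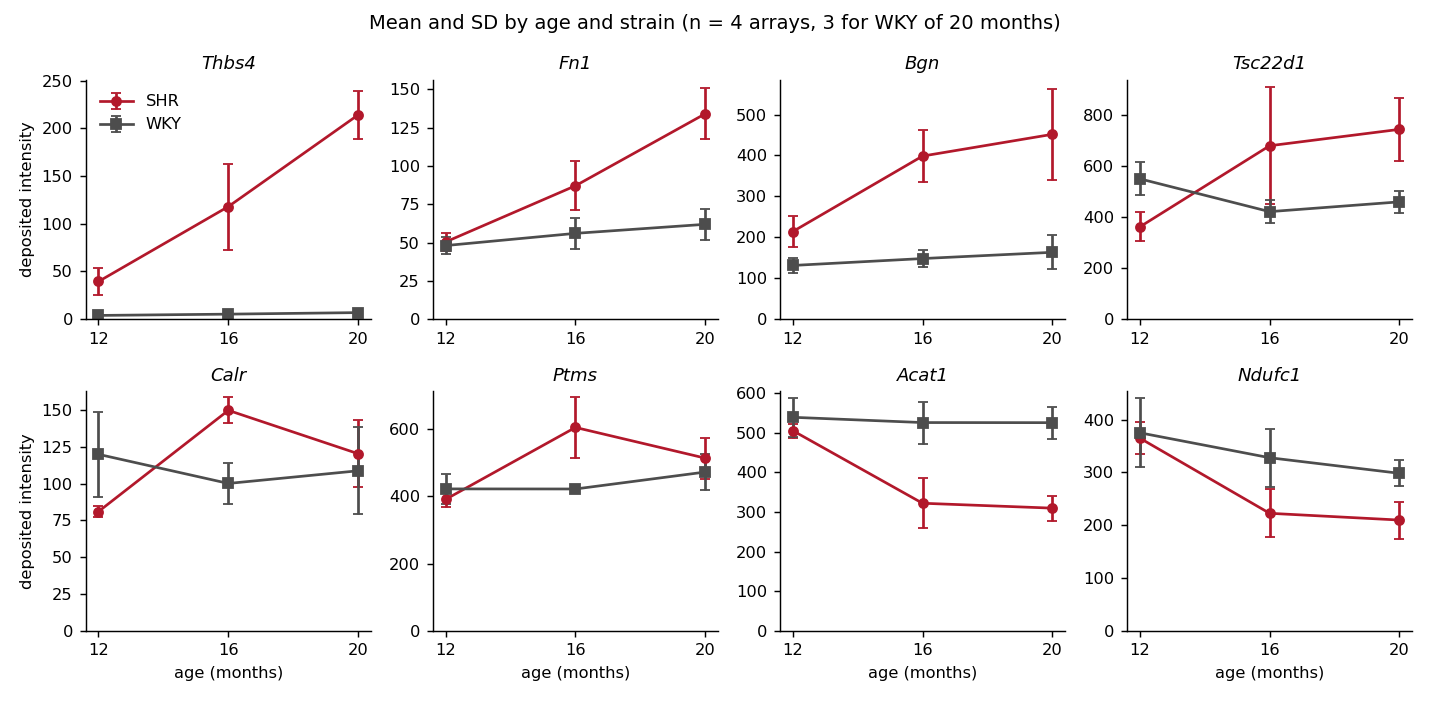
Mean deposited intensity with SD (y axis, linear from 0) of 8 genes at 12, 16 and 20 months (x axis) in SHR (red circles) and WKY (grey squares), for the called probe set of each gene. Thbs4 and Fn1 had means that were higher at each age in SHR, while Acat1 and Ndufc1 had similar means at 16 and 20 months.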

How the data were processed

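Intensities on a linear scale, 1 per probe set and array, were used as the authors deposited them. How probes were summarised is not given in the sources used here. On every array the 2% trimmed mean was 50.08 to 50.11, so the intensities had been scaled to a common value before deposit. The deposited instrument records (unit other) gave the hybridization day. A probe set was tested if at least 3 of 23 arrays put it over their own 30th percentile. After adding 32, log2 values were fitted with limma 3.58.1 in R 4.3.3 (6 groups, eBayes with trend), and two-sided p-values were adjusted by Benjamini-Hochberg over 7277 probe sets. The added 32 understates changes of dim genes. Symbols came from the platform annotation of 2016, matched by Entrez identifier to GRCr8, and 7006 probe sets carried 1 symbol, 308 more than 1, and 1426 no symbol. The probe set with the highest mean stood for a gene, and coordinates are given for promoters only. On simulated data for this contrast (7277 probe sets) the fit recovered 87% of 100 changes of 0.5 log2 and 99% of 100 of 1 log2, with 5 false calls. The simulated noise was independent between arrays, without hybridization days or arrays that stood apart. More changes were planted than the real contrast called, so these shares are not the power of the real comparison. Precision is limited by how few arrays there are.

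The members, the 30 gene lists and the tests were chosen with earlier results of these data known, so no list is independent evidence. Named genes were those with a called probe set, up to 3 of smallest p of each list and role, the 10 largest changes each way with an unadjusted p under 0.01 and no overlap, and a fixed set of heart failure genes. The text names a part of them, picked after their values were seen. Alternatives varied the added constant, filter, scaling, day, replicate block, trend and arrays.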

Additional observations from a re-analysis of the deposited data

Results flagged for a closer look

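Within the groups of 4 arrays, 82 called or otherwise selected probe sets were examined for a single array far from the other 3, in 164 groups, and 3 stood out, where chance alone gives about 1 in 20 groups. The called Cox5b probe set had its highest 12-month value, 814.9, on replicate 2, with the other 3 arrays between 692.3 and 703.7. Col5a1 had its lowest 16-month value, 36.4, on replicate 1, with the others between 66.4 and 72, and its change of 0.29 log2 became 0.43 and passed without that array. Hbb had its highest 16-month value, 1206.1, on replicate 2, with the others between 660.2 and 736.1.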

How the results depend on the processing

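The count of 27 probe sets became 49 under the stricter filter, 50 without the trend, 42 with the day as a fixed block, 1 with only the 8 arrays, 0 with only day 2, 136 without replicates 3 and 4 of 16 months and 1 without replicates 1 and 2 of 12 months. With 1 array left out it ran from 4 to 69. Pseudocounts of 16 and 64 gave 31 and 27 calls, and no filter gave 28. Of the calls 74.1% were higher as deposited, and 54.3% of 35 after quantile normalization, 63% of 27 after cyclic loess, 41.7% of 36 after median centring and 33.3% of 33 after scaling to a common median, an alternative chosen, like those that leave out 2 arrays, after seeing the data.

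The count of 0 for the strain difference in change became 1 with median centring and 2 with the replicate block, and ran from 0 to 6 with 1 array left out. That of the difference between steps ran from 0 to 6 with 1 array left out. With the replicate number as a block, 30 probe sets were called between 12 and 16 months. The labels do not say whether the numbers pair the samples. Same-numbered arrays had correlations of deviations of -0.04, 0.13, -0.07 and -0.12, and not every array correlated best with its own number. These are deviations from the means of small groups and also hold the hybridization day, so they cannot exclude a pairing.

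The medians of the matrix, fibrillar collagen, fatty acid, beta-oxidation, oxidative phosphorylation and complex I genes, the lists and roles recomputed under the alternatives, kept their sign in each. Other medians were compared only between days, where some changed sign: elastic fibre genes had -0.12 in day 2 (0.12 over all 8 arrays). On the other days smooth muscle markers had -0.04 (0.09 over all), lymphocyte markers -0.03 (0.06), ventricular cardiomyocyte markers -0.07 (0.06) and citrate cycle genes 0.01 (-0.05). Scaling to a common median gave 0.0571 for the matrix, -0.16 for fatty acid and -0.28 for oxidative phosphorylation genes. The fatty acid median was -0.15 without replicates 3 and 4 of 16 months, and the oxidative phosphorylation median was -0.25 without replicates 1 and 2 of 16 months and -0.24 without replicates 1 and 2 of 12 months. None of the 23 called probe sets with a symbol changed sign in up to 25 alternatives, and they kept their call in 5 to 23. Among probe sets not called, the sign turned for Spp1 (-0.0528 with the day fixed and in day 2 alone, -0.0497 without replicates 3 and 4 of 16 months) and Cd36 (0.0376 without replicates 1 and 2 of 16 months). It turned for Myh6 (-0.0336 after scaling to a common median, -0.0428 without replicates 1 and 2 of 16 months, -0.0595 to 0.155 with 1 array left out), Myh7 (-0.0739 after quantile normalization, -0.0863 without replicates 1 and 2 of 16 months, -0.0106 to 0.257 with 1 array left out) and Atp2a2 (-0.0025 after quantile normalization). It also turned for the brightest Dcakd set (0.00864 with the day fixed and in day 2 alone, 0.0205 without replicates 1 and 2 of 12 months, -0.0854 to 0.0654 with 1 array left out). The causes were not tested.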
